A study of Mus musculus with 2 samples.

Results

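Of the 44745 stretches of open chromatin found in both samples of mouse left cerebral cortex, 654 overlapped no DNase footprint in either. These regions without any footprint are the subject here. Open chromatin was mapped by DNase-seq, which sequences the ends left where the nuclease DNase I cuts accessible DNA, in 2 samples of 1 group. Both were left cerebral cortex tissue from male mice of the strain B6CASTF1/J, a cross of C57BL/6J and CAST/EiJ, aged 2 months, taken as biological replicates 1 and 2. The labels give them a shared donor record and separate biosample records, and that they are separate animals is assumed here. There was no treated or control group and both samples were bulk tissue, so a low value in fewer cells and a low value in all cells cannot be told apart. The regions were set against regions of the same study that hold a footprint in both samples.

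A footprint is a short stretch inside an open region that DNase I cuts less often than the bases around it, which is read as the shadow of a protein bound there. Active mammalian promoters are depleted of nucleosomes just upstream of the transcription start site (TSS), where sequence-specific factors and the transcription machinery bind, and ordered nucleosomes flank that gap on both sides. Many promoters of widely used genes lie in CpG islands, stretches rich in unmethylated CpG. CTCF, the main insulator factor of mammals, leaves one of the clearest footprints known.

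A shared region was made by merging peaks of both samples that overlapped by 1 bp or more. Each sample's peak list with fewer rows was used, with 63928 joined peaks in replicate 1 and 76440 in replicate 2. A footprint counted where it overlapped the region by 1 bp or more. The deposited footprint lists held 280338 footprints in replicate 1 and 245020 in replicate 2, with median widths of 10 bp and 9 bp. The sequencing depth of both libraries is unknown. As a check of the tissue, 14 of 15 pan-neuronal genes had a shared region at a promoter, and 1 of 14 endothelial and mural genes, beside 12277 of 21911 protein-coding genes in all. The other neuronal lists stood no higher than the glial ones of astrocytes and oligodendrocytes, with 10 of 19 cortical excitatory neuron, 8 of 16 inhibitory neuron, 9 of 13 astrocyte, 8 of 15 oligodendrocyte and precursor and 3 of 13 microglial genes.

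Regions without any footprint made up 1.46% of all shared regions. Footprints were missing from 1502 regions in replicate 1 (3.36%) and from 2545 regions in replicate 2 (5.69%). Beside the 654 regions, 1891 held a footprint in replicate 1 only, 848 in replicate 2 only, and 41352 in both. The regions were chosen by the absence of footprints from both lists, so these counts and all values of footprints in them are a description. With 1 group of 2 samples, and regions that are not replicates of each other, no p-value was computed for any difference given here. Intervals of shares are at 95%, exact for plain shares and stratified normal for weighted shares. They cover counting error over regions only, and neighbouring regions are not independent. With the peak lists of more rows there were 2211 such regions.

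The sequences below show what such a region looks like. The first pair lies beside Dpysl2, which encodes a microtubule-binding protein of growing axons, and the second beside Zfp143, which encodes a zinc finger protein that binds promoters. In each pair the region without footprint comes first and the taller region next to it second. All are reference sequence of GRCm38.p6 from RefSeq, on the plus strand. Capitals mark CpG dinucleotides in regions without footprint, and bases covered by a footprint of either sample in the others.
Dpysl2 region without footprint, chr14:66868981-66869260: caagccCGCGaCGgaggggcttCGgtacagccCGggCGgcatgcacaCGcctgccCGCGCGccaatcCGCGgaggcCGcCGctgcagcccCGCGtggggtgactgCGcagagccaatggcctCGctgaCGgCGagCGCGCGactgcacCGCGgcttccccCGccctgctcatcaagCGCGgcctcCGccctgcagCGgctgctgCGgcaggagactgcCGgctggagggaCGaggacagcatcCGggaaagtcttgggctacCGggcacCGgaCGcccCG
Dpysl2 taller neighbour, chr14:66868621-66868880: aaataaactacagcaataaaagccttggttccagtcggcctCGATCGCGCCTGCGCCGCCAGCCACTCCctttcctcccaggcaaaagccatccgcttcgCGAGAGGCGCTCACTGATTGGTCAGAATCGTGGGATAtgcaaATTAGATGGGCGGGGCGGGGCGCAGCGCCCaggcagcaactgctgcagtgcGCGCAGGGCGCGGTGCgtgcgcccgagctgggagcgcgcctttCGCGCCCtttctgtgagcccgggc
Zfp143 region without footprint, central part, chr7:110061911-110062210: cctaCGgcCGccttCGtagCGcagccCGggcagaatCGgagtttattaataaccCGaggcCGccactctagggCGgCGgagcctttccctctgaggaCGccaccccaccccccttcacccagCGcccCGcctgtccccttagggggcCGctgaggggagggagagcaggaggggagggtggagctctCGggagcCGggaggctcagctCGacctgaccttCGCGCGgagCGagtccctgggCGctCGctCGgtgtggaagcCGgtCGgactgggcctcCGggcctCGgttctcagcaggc
Zfp143 taller neighbour, central part, chr7:110061411-110061710: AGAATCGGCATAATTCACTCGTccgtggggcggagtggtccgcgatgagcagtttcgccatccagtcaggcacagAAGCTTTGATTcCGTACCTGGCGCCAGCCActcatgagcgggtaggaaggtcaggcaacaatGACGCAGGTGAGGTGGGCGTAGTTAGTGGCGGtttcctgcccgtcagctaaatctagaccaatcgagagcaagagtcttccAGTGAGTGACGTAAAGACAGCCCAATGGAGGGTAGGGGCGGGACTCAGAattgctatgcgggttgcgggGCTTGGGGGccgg

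The Dpysl2 region without footprint holds 38 CpG dinucleotides in 280 bp and is 74.6% G or C. Its neighbour, 260 bp long, holds 27 CpG dinucleotides at 64.2% G or C, and footprints of either sample cover 118 of its bases. In the Zfp143 pair the counts are 28 CpG dinucleotides in 300 bp without a footprint, against 20 in 300 bp of the neighbour, where footprints cover 141 bases. High CpG content was therefore present on both sides of these 2 pairs. The absence of footprints from the first region of each pair was set by the rule. The next 2 sequences are the tallest region without footprint far from promoters, near Eef1a2, which encodes a translation elongation factor of neurons and muscle, and a footprinted promoter of nearly the same height as the Dpysl2 region, that of the histone demethylase gene Kdm5b.
Eef1a2 distal region without footprint, chr2:181159881-181160080: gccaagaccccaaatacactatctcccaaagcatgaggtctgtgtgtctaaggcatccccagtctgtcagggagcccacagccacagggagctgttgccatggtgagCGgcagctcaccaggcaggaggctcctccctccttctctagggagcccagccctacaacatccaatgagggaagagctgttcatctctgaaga
Kdm5b promoter with footprints, chr1:134560041-134560260: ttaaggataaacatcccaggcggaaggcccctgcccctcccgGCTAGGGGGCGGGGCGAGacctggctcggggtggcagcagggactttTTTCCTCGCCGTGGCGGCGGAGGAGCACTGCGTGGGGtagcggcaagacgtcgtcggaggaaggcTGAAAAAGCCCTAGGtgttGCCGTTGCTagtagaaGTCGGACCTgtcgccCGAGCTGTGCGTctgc

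The Eef1a2 region has 1 CpG in 200 bp. The Kdm5b promoter has 19 CpG in 220 bp, and 5 footprints of replicate 1 and 4 of replicate 2 lie in it. The Dpysl2 region had heights of 3.26 in replicate 1 and 1.43 in replicate 2 with no footprint, and the Kdm5b promoter had heights of 2.94 and 1.59. Peak height is the authors' own signal value per peak, with a scaling that no label or file note states.

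Regions without any footprint were low. Their height, the geometric mean of both samples, had a median of 0.613 (quartiles 0.490 and 0.757), against 1.04 over all shared regions. Heights in replicate 1 ran from 0.147 to 3.26 with a median of 0.747, and in replicate 2 from 0.101 to 2.15 with a median of 0.4997. When all shared regions were cut into 5 bins of equal number by height, 394 of the 654 fell in the lowest bin (heights up to 0.657), 180 in the second, 66 in the third, 13 in the fourth and 1, the Dpysl2 region, in the highest. The share of regions without any footprint was 4.403% in the lowest bin (3.99% to 4.85%), 2.01% in the second, 0.738% in the third, 0.145% in the fourth and 0.0112% in the highest. The same order held in each sample alone, with 9.10% without a footprint in the lowest bin and 0.0559% in the highest in replicate 1, and 16.1% and 0.201% in replicate 2. Just outside the rule lay 816 regions with 1 footprint in the 2 lists together, whose median height of 0.606 was close to that of the regions with none.

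**Figure D1:**
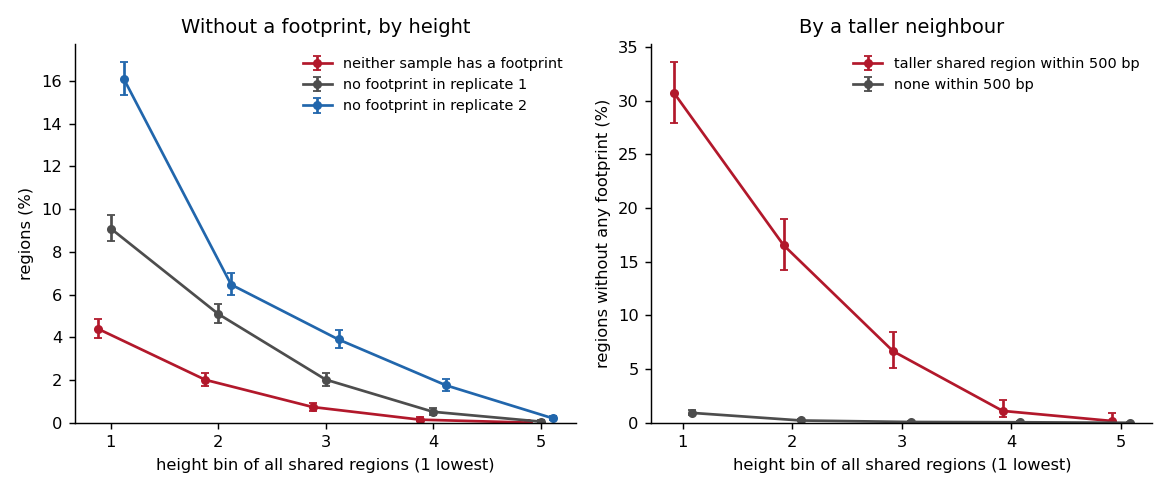
Left, the share of shared regions without a footprint (%, vertical axis) in each height bin from lowest to highest, for regions with a footprint in neither sample (red) and with none in replicate 1 (grey) or replicate 2 (blue). Right, the share without any footprint for regions with (red) and without (grey) a taller shared region within 500 bp, 30.7% against 0.924% in the lowest bin. Points are shares and bars exact 95% intervals.

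Since the share without a footprint differed by height, each share below is set against regions with a footprint in both samples, weighted to the same height bins. Such height-matched regions held a median of 3 footprints in replicate 1 and 2 in replicate 2, and footprints covered a median of 13.5% and 10.5% of their bases. Regions without any footprint had a median width of 280 bp against 220 bp in height-matched regions. That difference of 60 bp was 20 bp without replicate 1, 43.5 bp without replicate 2, and -3 bp with the longer peak lists, where the order turned. It was 18 bp with a taller neighbour matched, and 0 bp with promoter matched as well. The narrowest was 48 bp and the widest 1063 bp.

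Regions without any footprint lay mostly at promoters, and mostly beside a taller open region. A promoter here is the 500 bp on either side of any annotated TSS of GENCODE release M21. Of the 654 regions, 452 lay at a promoter, or 69.1% (65.4% to 72.6%), against 15.3% of height-matched regions (14.8% to 15.8%). Of all shared regions 37.2% lay at a promoter. Distal regions, over 2000 bp from every TSS, were 13.9% of them against 75.5% of height-matched regions and 53.4% of all shared regions. Introns held 13.9% against 37.99%, intergenic sequence 12.8% against 40.9%, and exons away from promoters 4.13% against 5.78%. Regions without any footprint were at promoters more often in each of the 4 lower height bins. It was 63.5% against 12.8% in the lowest bin, 77.8% against 16.2% in the second and 80.3% against 22.0% in the third. In the fourth bin, with 13 regions without footprint, it was 61.5% (31.6% to 86.1%) against 39.8%, too few regions to give a direction. Of the 816 regions with 1 footprint in all, 41.7% lay at a promoter, a share between those of the other sets. The difference of 53.8 percentage points from height-matched regions was 24.6 points when footprints and heights of replicate 1 were left out, 37.1 points without those of replicate 2, and 24.3 points with the longer peak lists.

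A taller shared region lay within 500 bp of 554 of the 654 regions without any footprint, or 84.7% (81.7% to 87.4%). The same held for 5.60% of height-matched regions (5.26% to 5.94%) and for 49.3% of those with 1 footprint in all. Over all shared regions the share was 9.71%. The gap between the region and its taller neighbour had a median of 215 bp (quartiles 124 and 319), and the distance between their centres a median of 530 bp (quartiles 431 and 640). The neighbour was a median of 4.52 times taller (quartiles 2.86 and 6.87), with median heights of 4.04 in replicate 1 and 2.22 in replicate 2. Of these neighbours 532 of 554 held a footprint in both samples, or 96.0%, with a median of 5 in each. Over all shared regions that share was 92.4%, and it was 97.9% in the fourth height bin and 99.8% in the highest. The 554 pairs involve 549 distinct neighbours. The difference from height-matched regions was 79.1 percentage points, 41.4 when footprints and heights of replicate 1 were left out, 54.9 without those of replicate 2, and 36.5 with the longer peak lists.

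**Figure D2:**
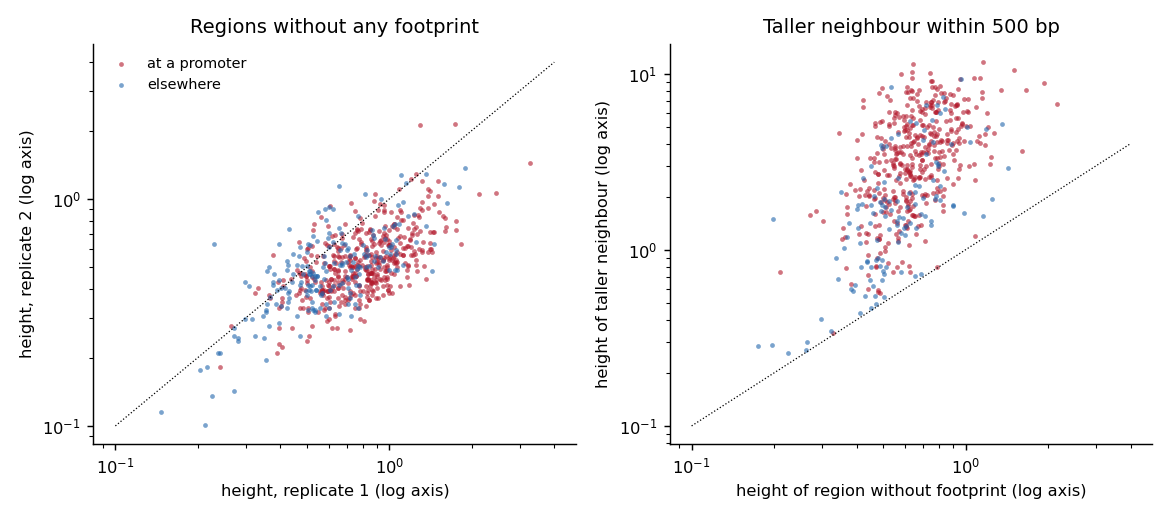
Left, peak height in replicate 1 (horizontal) against replicate 2 (vertical) of the 654 regions without any footprint, on log axes. Right, the height of the region (horizontal) against that of its taller neighbour within 500 bp (vertical), geometric means of both samples on log axes, for 554 pairs. Red points lie at a promoter and blue points elsewhere in both panels, the dotted line marks equal heights, and most neighbours lie far above it.

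Seen from all regions that have a taller neighbour within 500 bp, the share without any footprint followed how much taller that neighbour was. It was 1.964% (1.35% to 2.76%) where the neighbour was up to 1.5 times as tall and 3.98% at 1.5 to 2 times. It was 14.6% at 2 to 4 times, 39.0% at 4 to 8 times and 65.3% (57.0% to 73.0%) above 8 times. In the lowest height bin alone the share was 8.83% up to 1.5 times and 69.7% above 8 times, and in the second bin 0.625% and 67.9%. Of all shared regions with no taller neighbour in that distance, 0.248% had no footprint. In the lowest height bin 38.3% of promoter regions beside a taller one lacked any footprint, against 19.9% of other regions beside a taller one.

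At coding promoters these regions flanked the TSS and were more often downstream of it. There were 427 regions without any footprint within 500 bp of a TSS of a protein-coding gene, and the nearest coding genes were 419 different ones. Their centres lay a median of 375 bp from the nearest coding TSS, against 107 bp in height-matched footprinted regions at coding promoters. Of the 427, 312 were centred downstream, or 73.1% against 48.1%. Only 24.6% were centred within 200 bp of the TSS, against 66.7%. The bins with most of them were 400 to 600 bp downstream with 116 and 200 to 400 bp downstream with 107, and upstream 43 lay at 400 to 600 bp. A taller neighbour lay within 500 bp of 406 of the 427, and 352 of those 406 neighbours covered a TSS. When only regions with a taller neighbour were compared, the downstream shares were 73.4% against 60.0% and the median distances from the TSS 380 bp against 255 bp.

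**Figure D3:**
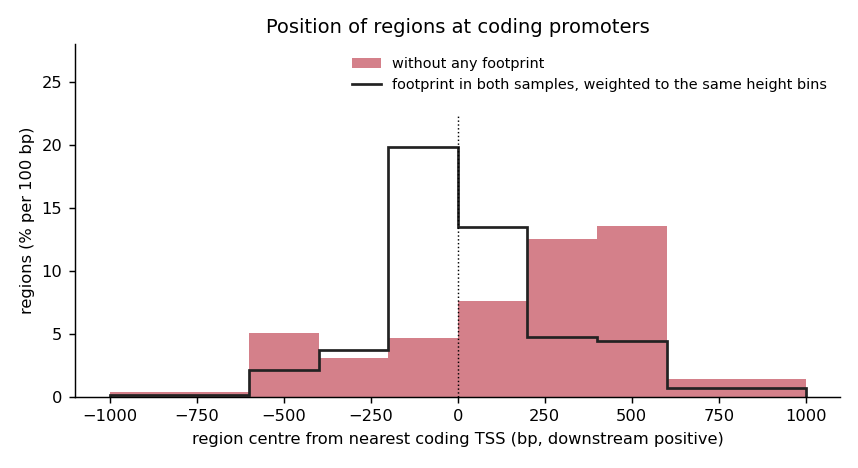
Position of region centres relative to the nearest coding TSS (bp, downstream positive) for 427 regions at coding promoters without any footprint (red area) and for footprinted regions weighted to the same height bins (black line), as percent of regions per 100 bp. The footprinted regions peak in the 200 bp upstream of the TSS, with 39.7% of them, where 9.37% of the regions without footprint lie.

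The tallest regions at coding promoters show the arrangement gene by gene. The Dpysl2 region was centred 433 bp upstream of the coding TSS, 100 bp away from a neighbour with heights of 8.34 and 5.38 in replicates 1 and 2. A TSS of the noncoding RNA gene Gm5464 lay nearer to its edge, at 131 bp against 293 bp for Dpysl2. Suco, which encodes a membrane protein of the endoplasmic reticulum, had a region with heights of 1.74 and 2.15, 589 bp upstream and 100 bp from a neighbour of 10.6 and 7.29. At Zfp524, a zinc finger gene, the region had heights of 2.44 and 1.06 and covered a TSS, and its neighbour had 4.66 and 2.81. The Zfp143 region, with 2.13 and 1.05, was centred 339 bp downstream of the TSS, and its neighbour of 10.9 and 10.1 held 9 footprints in replicate 1 and 6 in replicate 2. In all 4 the taller neighbour exceeded the region in both samples. The neighbours were chosen as taller by the geometric mean of these same heights.

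Among the others, Hnrnpa1, which encodes an RNA-binding splicing factor, had a region of 1.26 and 1.29 beside one of 4.21 and 4.98. Nedd9, which encodes a scaffold protein of cell adhesion signalling, had 1.40 and 1.09 beside 4.76 and 2.40, and the zinc finger gene Zkscan16 had 1.38 and 1.10 beside 3.86 and 2.44. Exceptions were Lmtk3, a kinase gene, and Stx4a, which encodes a syntaxin of exocytosis, where no taller shared region lay within 500 bp. The Lmtk3 region, with heights of 1.32 and 1.20, was only 85 bp wide and had its nearest footprint 42 bp away in replicate 1 and 44 bp away in replicate 2. The Stx4a region, with 1.51 and 1.03 and a width of 220 bp, overlapped coding sequence and was 640 bp and 644 bp from a footprint.

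Across the genome 456 of 12277 protein-coding genes with a shared region at a promoter had at least 1 without any footprint, or 3.71%. In lists of genes that stand for functions and cell types the counts were small. Of 54 cytosolic ribosomal protein genes 2 had one, Rpl10a (heights 0.954 and 0.891) and Rplp0 (1.06 and 0.527), and of 31 proteasome genes 0. Of 17 circadian clock genes with a shared promoter region, Tef, an output activator of the clock, had one (1.06 and 0.831) beside a region of 10.6 and 6.27, and the nuclear receptor gene Rora had one at 0.522 and 0.277. Of 20 immediate early genes only Jun, an AP-1 subunit gene, had one (1.02 and 0.540), 380 bp from a region of 11.3 and 8.99. Of 15 glutamate receptor and postsynaptic genes Gria4, an AMPA receptor subunit gene, had one (0.471 and 0.398). Housekeeping (0 of 16), pan-neuronal (0 of 14), cortical excitatory neuron (0 of 10), astrocyte (0 of 9), inhibitory neuron and oligodendrocyte genes (0 of 8 each), microglial (0 of 3) and endothelial and mural genes (0 of 1) had none. Beside the 3.71% of all coding genes these counts are too small to read anything from.

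Of the 456 genes, 4 had no shared region with a footprint within 500 bp of their TSSs. They were Lgals3bp, which encodes a secreted glycoprotein, with heights of 0.954 and 0.871, the unnamed gene D930007J09Rik with 1.24 and 0.574, Prtg, which encodes protogenin, a receptor of the DCC family, with 0.656 and 0.338, and the collagen gene Col5a2 with 0.410 and 0.412. A taller shared region lay within 500 bp of the regions of D930007J09Rik and Prtg, and of neither of the others. These 4 were named after their values were seen.

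The sequence of the regions without any footprint was richer in G, C and CpG than that of height-matched regions. In their central 200 bp the median GC content was 59.0% against 50.5%, and the median ratio of observed to expected CpG was 0.609 against 0.282. A centre with a ratio of 0.6 or more and at least 50% GC was called CpG-rich. That held for 320 of 654, or 48.9% (45.0% to 52.8%), against 10.1% (9.70% to 10.5%) in height-matched regions, and for 31.9% of all shared regions. Against footprinted regions that were matched on height and on a taller neighbour the shares were 48.9% and 28.8% (26.3% to 31.2%), and with promoter matched as well 48.9% and 38.9% (35.9% to 42.0%). In the fourth height bin the CpG-rich share was 30.8% of 13 regions (9.09% to 61.4%) against 34.3%, too few regions to give a direction. Against height-matched regions the difference of 38.8 percentage points was 20.04 points when replicate 1 was left out, 27.5 without replicate 2, and 15.9 with the longer peak lists. DNase I itself cuts some sequences more than others, and how the authors' footprint calls allowed for that is stated in no label or file note, so its part in these differences was not tested.

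Motifs were searched as exact letters on both strands of the central 200 bp, and each match is a description of the letters only. The CTCF consensus was in 6 of 654 regions without any footprint, or 0.917% (0.337% to 1.99%), against 10.2% (9.78% to 10.7%) of height-matched regions and 10.5% of all shared regions. With a taller neighbour matched as well, it was 0.917% against 4.203%, and with promoter matched too 0.917% against 2.99% (2.24% to 3.74%). The difference of -9.30 percentage points from height-matched regions was -4.57 with the longer peak lists and -4.69 with width matched as well. The AP-1 motif TGANTCA was in 5.50% (3.88% to 7.54%) against 14.6%, and with a taller neighbour matched 5.50% against 8.01% (6.63% to 9.39%), with overlapping intervals. AP-1 is the Fos and Jun dimer that binds enhancers of active neurons. Of the E-boxes, which bHLH factors bind, CAGATGG was in 5.50% against 10.2% and CAGCTG in 12.1% against 19.5%. Over all shared regions the shares were 10.5% for AP-1, 7.77% for CAGATGG and 16.8% for CAGCTG. With a taller neighbour matched, CAGATGG was in 5.50% against 7.30% and CAGCTG in 12.1% against 16.2%, again with overlapping intervals. With promoter matched too, AP-1 was in 5.50% against 6.05%, CAGATGG in 5.50% against 6.05% and CAGCTG in 12.1% against 14.4%.

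The motifs common in CpG-rich promoters took no single direction. The GC box GGGCGG, bound by SP and KLF factors, was in 28.4% (25.01% to 32.1%) against 12.3% of height-matched regions, but in 28.4% against 30.3% (27.3% to 33.3%) where neighbour and promoter were matched. The CCAAT box CCAAT, bound by NF-Y, was in 17.9% (15.03% to 21.05%) against 22.2% (21.6% to 22.8%), and with a taller neighbour matched in 17.9% against 18.1%. Over all shared regions the GC box was in 27.6%, close to the 28.4% here, and the CCAAT box in 24.9%. NRF1 (GCGCANGCG) was in 1.68% against 0.916%, ETS (CCGGAAGT) in 0.765% against 0.317%, YY1 (AANATGGCG) in 1.22% against 0.612% and Kaiso (CTCGCGAG) in 0.612% against 0.0645%. Those 4 rest on 11, 5, 8 and 4 regions. The shares over all shared regions were 4.85% for NRF1, 2.34% for ETS, 1.70% for YY1 and 0.568% for Kaiso. The CRE TGACGTCA was in 2 regions (0.306%), the EGR motif GCGTGGGCG in 5 (0.765%), MEF2 in 3 (0.459%) and RFX in 2 (0.306%). In the same order the shares were 0.608%, 0.273%, 0.890% and 0.385% of height-matched regions. Over all shared regions they were 1.55%, 0.628%, 0.679% and 0.420%, and the counts are too small to give a direction. The SOX motif CCTTTGT was in 2.45% against 4.42%, with 3.59% over all shared regions. NFI and REST matched 0 of 654, which allows up to 0.562%, with 0.0648% and 0.0358% over all shared regions.

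**Figure D4:**
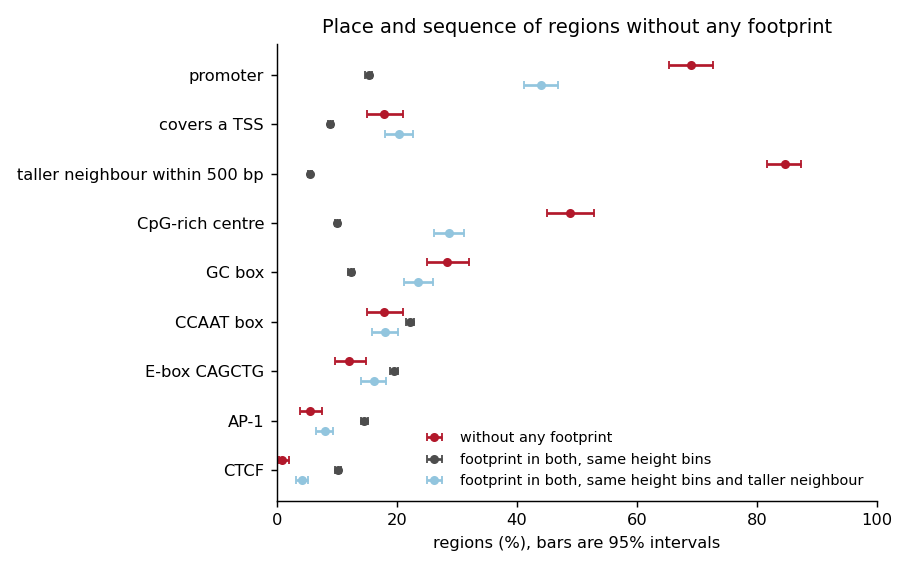
Share of regions (%, horizontal axis) by place, neighbour and motif for regions without any footprint (red, n = 654), footprinted regions weighted to the same height bins (dark grey), and footprinted regions weighted to the same height bins and presence of a taller neighbour (light blue). Bars are 95% intervals, exact for the red points and stratified normal for the others. Promoter shares are 69.1%, 15.3% and 44.0%.

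A region without any footprint also differed in sequence from the taller region beside it, which was picked by height. The neighbours had a median height of 3.01, and the highest height bin begins at 2.16. Of footprinted regions in that bin 73.8% covered a TSS and 80.6% had a CpG-rich centre. The GC box was in 61.3% of them, CCAAT in 39.2%, NRF1 in 17.0%, ETS in 8.26%, YY1 in 4.86% and Kaiso in 2.17%. Whether footprinted regions differ as much from their own taller neighbours was not tested. Over the 554 pairs the region covered a TSS in 19.9% (16.6% to 23.4%) and its neighbour in 70.8% (66.8% to 74.5%). The centre was CpG-rich in 53.6% against 79.4% of neighbours. The NRF1 motif was in 1.99% (0.995% to 3.52%) against 12.8% (10.1% to 15.9%), and NRF1 is a factor of nuclear genes for mitochondria. The ETS motif was in 0.903% against 6.50%, the GC box in 30.9% against 60.8%, the CCAAT box in 18.2% against 33.8%, YY1 in 1.44% against 4.33% and Kaiso in 0.722% against 3.25%. CTCF matches were few on both sides, 0.542% against 2.17%. AP-1 was in 5.05% (3.38% to 7.22%) against 3.07% (1.80% to 4.87%) and the E-box CAGATGG in 4.87% against 2.53%, with overlapping intervals. The separate intervals of both sides did not overlap for NRF1, ETS, the GC box, the CCAAT box and Kaiso, and overlapped for YY1. They ignore that each region is paired with its own neighbour, so overlap or its absence is no test of a difference.

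**Figure D5:**
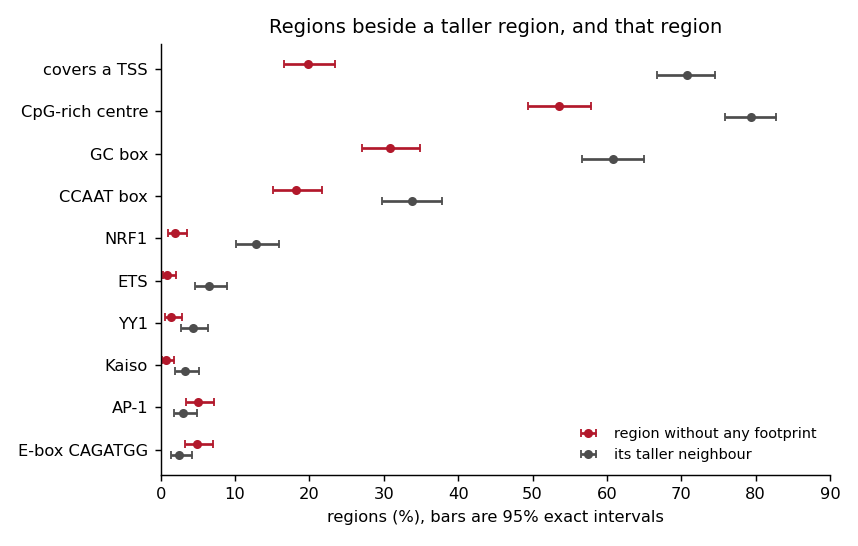
Share (%, horizontal axis) of the 554 regions without any footprint that lie beside a taller region (red) and of those taller neighbours (dark grey) that cover a TSS, have a CpG-rich centre or hold a motif. Bars are exact 95% intervals. TSS, CpG-rich centre, GC box, CCAAT box, NRF1 and ETS lie to the right in the neighbours, and AP-1 and the E-box do not.

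Footprints inside these regions were absent by the rule. The distance to the nearest one outside was measured for these regions only, so it is not compared with other regions. The nearest footprint lay a median of 199 bp from the region in replicate 1 (quartiles 119 and 297) and 255 bp in replicate 2 (quartiles 163 and 369). Of the 654 regions, 146 had a footprint of either sample within 100 bp. Within 500 bp there was one for 601 regions in replicate 1 and 576 in replicate 2. The false discovery rate (FDR) track, from which the footprints were derived per the file notes, covered the regions: the median region had all its bases at an FDR under 0.05 in both samples. Of the footprints themselves 97.9% in replicate 1 and 98.6% in replicate 2 lay wholly in such bases. At the stricter FDR under 0.001, a median of 100% of bases in replicate 1 and 83.5% in replicate 2 were covered in regions without any footprint, against 87.8% and 98.6% in height-matched regions. With a taller neighbour matched these were 100% and 83.5% against 95.8% and 88.3%.

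The peaks of both samples shared fewer bases here than elsewhere. The bases shared by the peaks of both samples made up a median of 50.6% of the merged region, against 63.7% in height-matched regions and 53.8% where a taller neighbour was matched. The log2 ratio of heights, replicate 2 over replicate 1, had a median of -0.56 (quartiles -0.87 and -0.21), against -0.17 in height-matched regions and -0.46 over all shared regions. At promoters it was -0.64 against -0.55, elsewhere -0.35 against -0.10, and at promoters beside a taller region -0.65 against -0.64. With 1 library against 1 library this is a description of these libraries, and the part of sequencing depth was not tested.

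The regions without any footprint fell into 4 kinds by place and neighbour. The 428 at promoters beside a taller region were the widest (median 300 bp) and the most CpG-rich (61.2%), with a median height of 0.637. The 126 away from promoters but beside a taller region had a median width of 261 bp and were CpG-rich in 27.8%. Of their neighbours 47 lay at a promoter. The 24 at promoters without a taller neighbour had a median width of 241 bp and were CpG-rich in 37.5%. The 76 that were neither were narrow (191 bp) and low (median height 0.496), with 18.4% CpG-rich, and they held 3 of the 6 CTCF matches.

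Distal regions without any footprint numbered 91, of which 54 had a taller neighbour. The tallest was the Eef1a2 region shown above, 2867 bp from the TSS in intergenic sequence, with heights of 1.90 in replicate 1 and 1.37 in replicate 2 and no taller neighbour. The next, with 1.11 and 1.27, lay 4851 bp from Znrf4 beside a region of 5.53 and 4.30. An intronic one 24038 bp from the TSS of Oat, which encodes ornithine aminotransferase, had 1.12 and 0.966 beside 5.66 and 2.96. Another, 3807 bp from the TSS of the kinase gene Mast3, was 79 bp wide and had a footprint 2 bp beyond its edge in both samples. A pair lay near Ahdc1, 3482 bp and 8086 bp from its TSS, both without a taller neighbour, with heights of 1.23 and 0.858 and of 0.933 and 0.999. Their nearest footprints were 4077 bp away in replicate 1 and 1272 bp in replicate 2 for the first, and 20 bp and 19 bp for the second. The others of the 10 tallest lay 7283 bp from Mpzl1, 54055 bp from Cstad, 11850 bp from Tank and 8181 bp from Pllp.

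Sequence in several copies made up little of the set. In 7 of 654 regions at least 50% of the 25-mers occur more than once in the reference, or 1.07% (0.431% to 2.19%), against 1.39% of height-matched regions (1.20% to 1.59%). Of the tallest, one lay 10595 bp from Gm21887 on the X chromosome with a median of 8 copies per 25-mer (heights 1.25 and 0.648) and another 4100 bp from Tmem125 with 8 copies (0.881 and 0.533). Reads from such places cannot be assigned to 1 copy with certainty. The order of the shares turned, to a difference of 0.181 percentage points, without replicate 1 and, to 0.682, with the longer peak lists, so no direction is given.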

How the data were processed

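DNase-seq of 2 left cerebral cortex samples was used as the deposited peak, footprint and FDR lists on mm10. Peak height is a signal value per peak that the authors computed per sample, with caller and scaling not stated in the labels or file notes. The deposited footprint lists carry the constant 0.01 in each row and served as positions only. The FDR lists, per the file notes derived from each sample's filtered alignment, were deposited with bases under 0.05. Peaks of a sample that overlap were joined, then merged across samples at 1 bp or more.

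Heights were combined as geometric means and comparison regions weighted to 5 height bins. Intervals are exact Clopper-Pearson at 95%, or stratified normal for weighted shares. Sequence came from RefSeq GRCm38.p6 and genes from GENCODE M21. Calculations used Python 3.11.15, NumPy 2.4.6, pandas 2.3.3, SciPy 1.17.1 and numba 0.67.0, and were tested on simulated data. Named regions are the 10 tallest at coding promoters, the 10 tallest distal, the 3 tallest multi-copy and the tallest in each gene list. Of these, 2 are not reported here. The regions and gene lists were chosen with earlier results of these data known. Depth is unknown, since no read counts were used.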

Additional observations from a re-analysis of the deposited data

How the results depend on the processing

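Of 86 alternatives, 50 left a result within its spread, 33 moved it and 3 turned its direction, and the cause was not tested. Differences are regions without any footprint minus height-matched regions, in percentage points, or in bp for width. The 654 regions became 2211 with the longer peak lists, 77 among peaks above the median height, and 1502 to 2545 when 1 replicate was left out. With the longer lists the differences were 24.3 for promoters, 15.9 for CpG-rich centres, -4.57 for CTCF and 36.5 for a taller neighbour. Those lists turned the width difference to -3 bp and the multi-copy difference to 0.682. Matching on width as well gave 47.6 for promoters, 33.5 for CpG-rich centres, -4.69 for CTCF and 2 bp for width. Among peaks above the median height CTCF was -17.2 and width 100 bp. A promoter of 2000 bp gave 61.6, and comparison regions with a footprint in at least 1 sample gave 75.9 for a taller neighbour.

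Matching on a taller neighbour, chosen after seeing the data, as was the neighbour result itself, gave 25.1 for promoters, 20.2 for CpG-rich centres, -3.29 for CTCF, -1.14 for multi-copy sequence and 18 bp for width. With promoter matched too these were 9.99 for CpG-rich centres, -2.07 for CTCF, -1.34 for multi-copy sequence and 0 bp for width. Leaving out 1 replicate gave 24.6 to 37.1 for promoters, 20.04 to 27.5 for CpG-rich centres, 20 to 43.5 bp for width, -0.219 to 0.181 for multi-copy sequence and 41.4 to 54.9 for a taller neighbour. No paired analysis of samples was possible because there is 1 group of 2 samples. Depth is unknown, so an absent footprint is one not listed by the authors at that depth.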

Other observations

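On the X chromosome 30 of 1136 shared regions had no footprint, or 2.64% (1.79% to 3.75%), against 1.46% of all shared regions. Of these 30, 27 lay in the lowest height bin. The X held 4.59% of the regions without any footprint (3.12% to 6.48%), against 3.96% of height-matched regions and 2.54% of all shared regions. Coding sequence was overlapped by 136 of the 654, or 20.8%, against 6.44% of height-matched regions, and 20.8% against 22.1% where neighbour and promoter were matched. By the gap to the taller neighbour, the share without any footprint was 7.34% up to 100 bp, 16.9% at 100 to 200 bp, 16.8% at 200 to 300 bp, 14.6% at 300 to 400 bp and 9.58% at 400 to 500 bp.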
